A study of Mus musculus with 12 samples.

Results

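Mature microRNAs of the miR-199 and miR-214 families were followed in mouse skin after ultraviolet B (UVB) irradiation. MicroRNAs (miRNAs) are short RNAs that repress mRNAs, and each hairpin precursor can give a mature arm from its 5′ side (5p) and another from its 3′ side (3p). The members were both arms of miR-199a, miR-199b and miR-214, chosen by name: 6 of the 1519 arms in the deposited table, which lists them with the mouse prefix as mmu-miR-199a-3p, mmu-miR-199a-5p, mmu-miR-199b-3p, mmu-miR-199b-5p, mmu-miR-214-3p and mmu-miR-214-5p. miR-199a-3p and miR-199b-3p have the same sequence and hold identical values, so they were counted once, as miR-199-3p, which leaves 5 distinct arms. All 5 passed the filter on low values, as did 590 arms of the whole table.

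The skin came from inbred C57BL/6 mice aged 6 to 8 weeks, and its small RNA was sequenced. Controls were untreated (0 mJ/cm2), and the other groups received 90, 180 or 360 mJ/cm2 from a phototherapy lamp; no group carried a transgene or a mutation, per the labels. Each dose had 3 libraries, 12 in all, and nothing in the labels ties them to separate animals. The p-values therefore speak of the scatter among libraries, which could be technical. The interval between irradiation and sampling is not given in the sources used here. Levels are in CPM, an arm's reads scaled to a library total of 1000000. The libraries held 3164422 to 8063815 such reads, so a single read was worth 0.124 to 0.316 CPM, and members had at least 102 CPM in every library. Whole skin was sequenced, so more cells of a type and more RNA per cell cannot be told apart, and a fibroblast origin of the reads was not tested. All 7 keratinocyte and epithelial marker arms, such as miR-203-3p and miR-205-5p, were detected in every library.

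Some libraries stood apart from their own dose across the 590 arms, by Pearson r of log2(CPM + 1) over arms, which are not independent replicates. Control replicate 3 was closer to UVB_90 replicate 1 (r = 0.985) than to the rest of its group, at 0.982 on average. UVB_90 replicate 3 was closest to UVB_180 replicate 1, and the same held in reverse (r = 0.990). UVB_180 replicate 2 was closest to UVB_90 replicate 2 (r = 0.991). Results that change without one of these libraries are given with and without it.

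As background, miR-199a and miR-214 are best known from mesenchyme, the tissue of fibroblasts and smooth muscle. In the mouse a single long noncoding transcript, Dnm3os, carries the hairpins Mir199a-2 and Mir214, and the transcription factor Twist1 is known to activate it. miR-199a-5p has been linked to fibrosis through caveolin-1, miR-199a-3p represses Mtor and Met, and miR-214-3p represses Ezh2; these roles come from other mouse and human systems. Target mRNAs were not measured in these libraries.

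The mature sequences are shown because they decide which arms can be told apart and which share targets. They are RefSeq sequences on GRCm38.p6, 5′ to 3′, with the seed (bases 2 to 8, which pair with target mRNAs) in capitals.
miR-199a-5p: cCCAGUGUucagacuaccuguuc
miR-199a-3p and miR-199b-3p: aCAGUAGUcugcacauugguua
miR-214-5p: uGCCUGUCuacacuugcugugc
miR-214-3p: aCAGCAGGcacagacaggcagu
The 4 seeds differ from each other. miR-199a-5p and miR-199a-3p are made by 2 hairpins, Mir199a-1 at chr9:21496495-21496564 on the minus strand and Mir199a-2 at chr1:162217814-162217923 on the plus strand, so the reads do not say which locus they came from. The Mir199a-1 hairpin lies in an intron of Dnm2, a dynamin gene, on the opposite strand. The Mir199a-2 hairpin lies opposite an intron of Dnm3 and overlaps an exon of Dnm3os, in GENCODE's annotation. Mir214 (chr1:162223368-162223477, plus strand) also overlaps an exon of Dnm3os, 5444 bases downstream of Mir199a-2. Mir199b is at chr2:32318460-32318569 on the plus strand, opposite an intron of Dnm1. In the seed search over RefSeq's mature mouse miRNAs, no arm outside the family shared a seed with miR-199a-5p, miR-199-3p or miR-214-5p, and miR-761 shared that of miR-214-3p.

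The hairpins of Mir199a-2 and Mir199b show how the 5p arms differ while the 3p arms do not. The capitals mark the 3p arm and the stretch of miR-199a-5p or its closest match.
Mir199a-2: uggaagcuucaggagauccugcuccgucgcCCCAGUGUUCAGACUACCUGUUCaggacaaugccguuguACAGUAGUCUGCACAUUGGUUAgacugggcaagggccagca
Mir199b: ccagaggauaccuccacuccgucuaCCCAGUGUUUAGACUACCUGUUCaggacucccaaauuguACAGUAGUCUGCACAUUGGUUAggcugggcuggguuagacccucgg
In Mir199b, the stretch was found as the closest match to miR-199a-5p, and the ends of miR-199b-5p itself were not read from a mature entry. The stretch differs from miR-199a-5p by 1 substitution, C10U, counted from 1 at the 5′ end of miR-199a-5p and outside the seed. Over that stretch a single base separates the 2 hairpins. How reads with mismatches were assigned is not given in the sources used here, so the split of reads between miR-199a-5p and miR-199b-5p is uncertain to that extent.

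miR-199-3p (mmu-miR-199a-3p and mmu-miR-199b-3p) was the most abundant member at every dose and was higher in irradiated skin. It had 17871, 19829 and 18196 CPM in controls, 27969, 29052 and 40902 CPM at 90 mJ/cm2, 30802, 28517 and 38908 CPM at 180 mJ/cm2, and 36692, 32951 and 22708 CPM at 360 mJ/cm2. Every irradiated library lay above every control, and the controls were close together. Its place in order of abundance was 6 to 11 in irradiated libraries and 13 or 14 in controls. In limma's test on log2(CPM + 1), with p-values adjusted over the 590 arms, it rose by 0.79 ± 0.22 log2 units at 90 mJ/cm2 (SE; adjusted p = 0.0186), by 0.80 ± 0.22 at 180 mJ/cm2 (adjusted p = 0.0150) and by 0.70 ± 0.22 at 360 mJ/cm2 (adjusted p = 0.0218). The mean of the 3 doses was 0.76 ± 0.18 above control (adjusted p = 0.00405), 1.70-fold, and this call held in all 25 alternative settings. The dose-wise calls ended without control replicate 1 (adjusted p = 0.0672, 0.0510 and 0.0571 at 90, 180 and 360 mJ/cm2), without UVB_90 replicate 3 (0.61, adjusted p = 0.0926), without UVB_180 replicate 3 (0.67, adjusted p = 0.0653), and without UVB_360 replicate 1 (0.56, adjusted p = 0.107) or 2 (0.63, adjusted p = 0.0700).

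**Figure D1:**
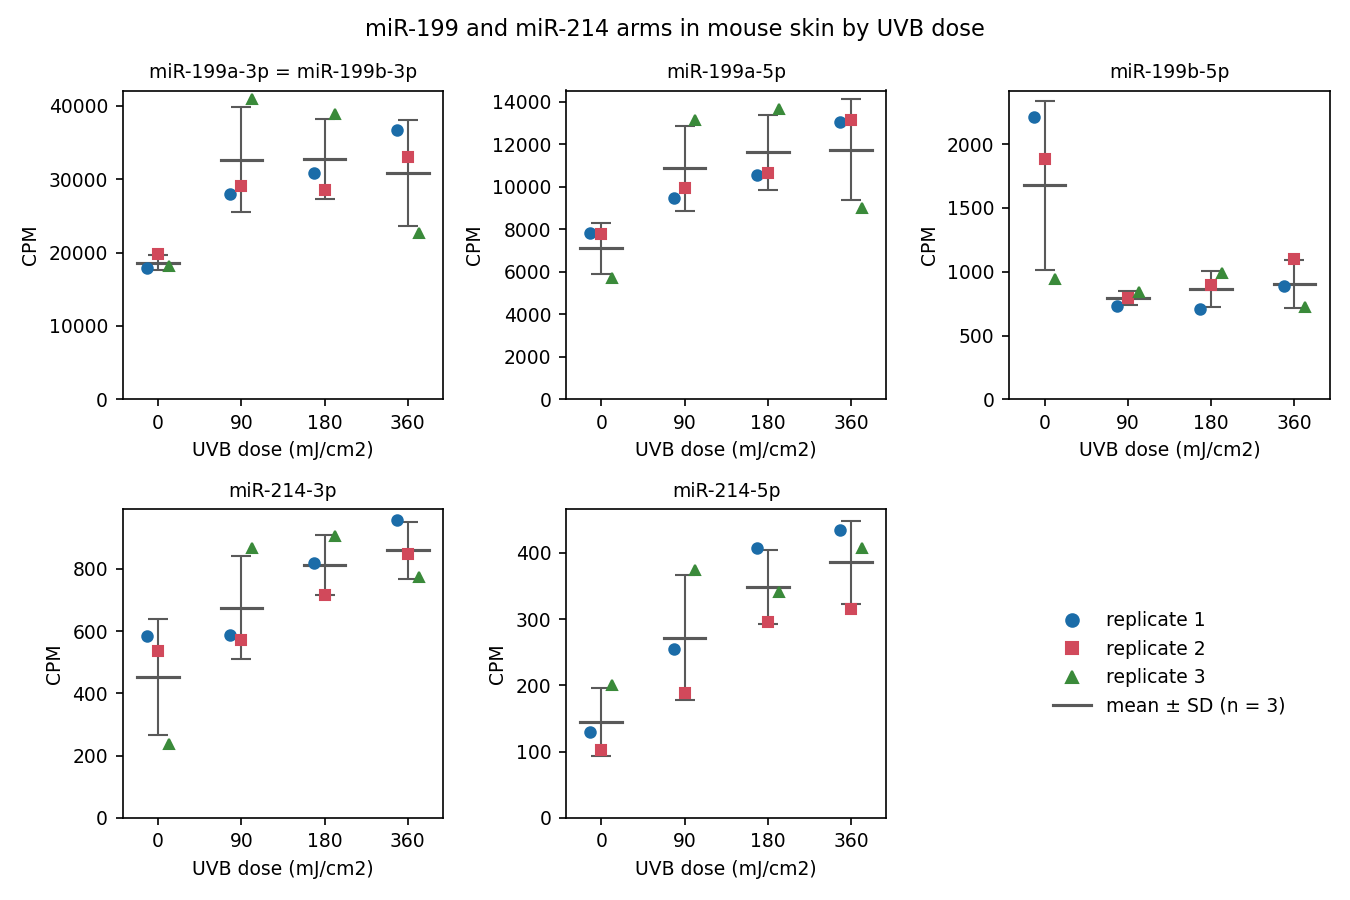
Level of each distinct arm in CPM (y axis, from 0) against UVB dose in mJ/cm2 (x axis), 1 point per library with its replicate number, and the mean ± SD of 3 libraries as grey bars. miR-199-3p and miR-199a-5p lie higher in all 9 irradiated libraries than in any control, while miR-199b-5p has its highest values, 2212 and 1882 CPM, in controls 1 and 2.

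mmu-miR-199a-5p, the other arm of the miR-199a hairpins, was also higher after irradiation. It had 7844, 7772 and 5729 CPM in controls, 9492, 9941 and 13156 CPM at 90 mJ/cm2, 10557, 10642 and 13653 CPM at 180 mJ/cm2, and 13062, 13154 and 9004 CPM at 360 mJ/cm2. All 9 irradiated libraries again lay above all 3 controls, with control replicate 3 lowest. It rose by 0.71 ± 0.22 log2 units at 180 mJ/cm2 (limma adjusted p = 0.0244) and by 0.72 ± 0.22 at 360 mJ/cm2 (adjusted p = 0.0172). At 90 mJ/cm2 the difference was 0.61 ± 0.22 (adjusted p = 0.0532) and missed the threshold of 0.05. It passed there in 5 of 25 alternatives, DESeq2 among them (adjusted p = 0.0251). Over all irradiated libraries it rose by 0.68 ± 0.18 (adjusted p = 0.00725) and passed in all 25. The call at 180 mJ/cm2 ended without a filter on low values (adjusted p = 0.0526), without control replicate 3 (0.0688) and without UVB_180 replicate 3 (0.0952). That at 360 mJ/cm2 ended without control replicate 3 (0.0574), UVB_360 replicate 1 (0.0769) or UVB_360 replicate 2 (0.0674).

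mmu-miR-199b-5p, from the Mir199b locus alone, went the other way. It had 2212, 1882 and 939 CPM in controls, 734, 793 and 844 CPM at 90 mJ/cm2, 710, 893 and 990 CPM at 180 mJ/cm2, and 889, 1097 and 725 CPM at 360 mJ/cm2. Control replicate 3 was far below the other controls, and only the group of 90 mJ/cm2 stayed clear of it. The arm fell by 0.996 ± 0.276 log2 units at 90 mJ/cm2 (limma adjusted p = 0.0176), by 0.88 ± 0.28 at 180 mJ/cm2 (adjusted p = 0.0262) and by 0.82 ± 0.28 at 360 mJ/cm2 (adjusted p = 0.0277). Over all irradiated libraries it fell by 0.90 ± 0.23 (adjusted p = 0.00531), to 853 ± 130 CPM in irradiated skin (SD, n = 9), against 1677 ± 660 CPM in controls (n = 3). These calls leaned on the controls. Without control replicate 1 the adjusted p was 0.0958, 0.129 and 0.132 at 90, 180 and 360 mJ/cm2 and 0.0554 over all irradiated libraries, where the difference was -0.65. Without control replicate 2 it was 0.0693, 0.0983 and 0.102 at the 3 doses. Without control replicate 3 the difference over all irradiated libraries was larger, -1.27. The call at 180 mJ/cm2 also ended without UVB_180 replicate 1 (0.0957) or 2 (0.0549), and that at 360 mJ/cm2 without UVB_360 replicate 1 (0.0688) or 3 (0.116). When the totals left out miR-21a-5p and miR-1a-3p, which took many of the reads, the value at 360 mJ/cm2 was -0.56 (adjusted p = 0.123). In fits of only the groups compared the adjusted p was 0.0557, 0.0616 and 0.0595 at the 3 doses.

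The split of miR-199-5p reads between Mir199b and the Mir199a loci separated irradiated from unirradiated skin in every library. miR-199b-5p made up 22.0%, 19.5% and 14.1% of miR-199-5p reads in controls, 7.18%, 7.39% and 6.03% at 90 mJ/cm2, 6.30%, 7.74% and 6.76% at 180 mJ/cm2, and 6.37%, 7.69% and 7.45% at 360 mJ/cm2. The lowest control was well above the highest irradiated library, control replicate 3 included, and the 3 doses overlapped. Among single arms, 23.6% of the 590 kept all irradiated libraries apart from all controls. How often ratios between other arms do so was not examined. Each library had 25101 to 81091 such reads, and its 95% Wilson interval reached at most 0.430 percentage points to either side, for counting error only. As a log2 ratio within a library, which does not depend on how libraries are scaled, miR-199b-5p over miR-199a-5p averaged -3.74 ± 0.14 in irradiated skin (SD, n = 9) and -2.16 ± 0.40 in controls (n = 3). The difference was -1.58 (two-sided exact permutation p = 0.00455, the smallest that 220 regroupings can give; 0.0182 adjusted over the 4 ratios tested). Over the 4 dose groups the exact permutation p was 0.0152 (adjusted p = 0.0608). Without control replicate 1, 2 or 3 the difference was -1.41, -1.52 and -1.80, and with 2 controls no p under 0.0182 is possible.

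**Figure D2:**
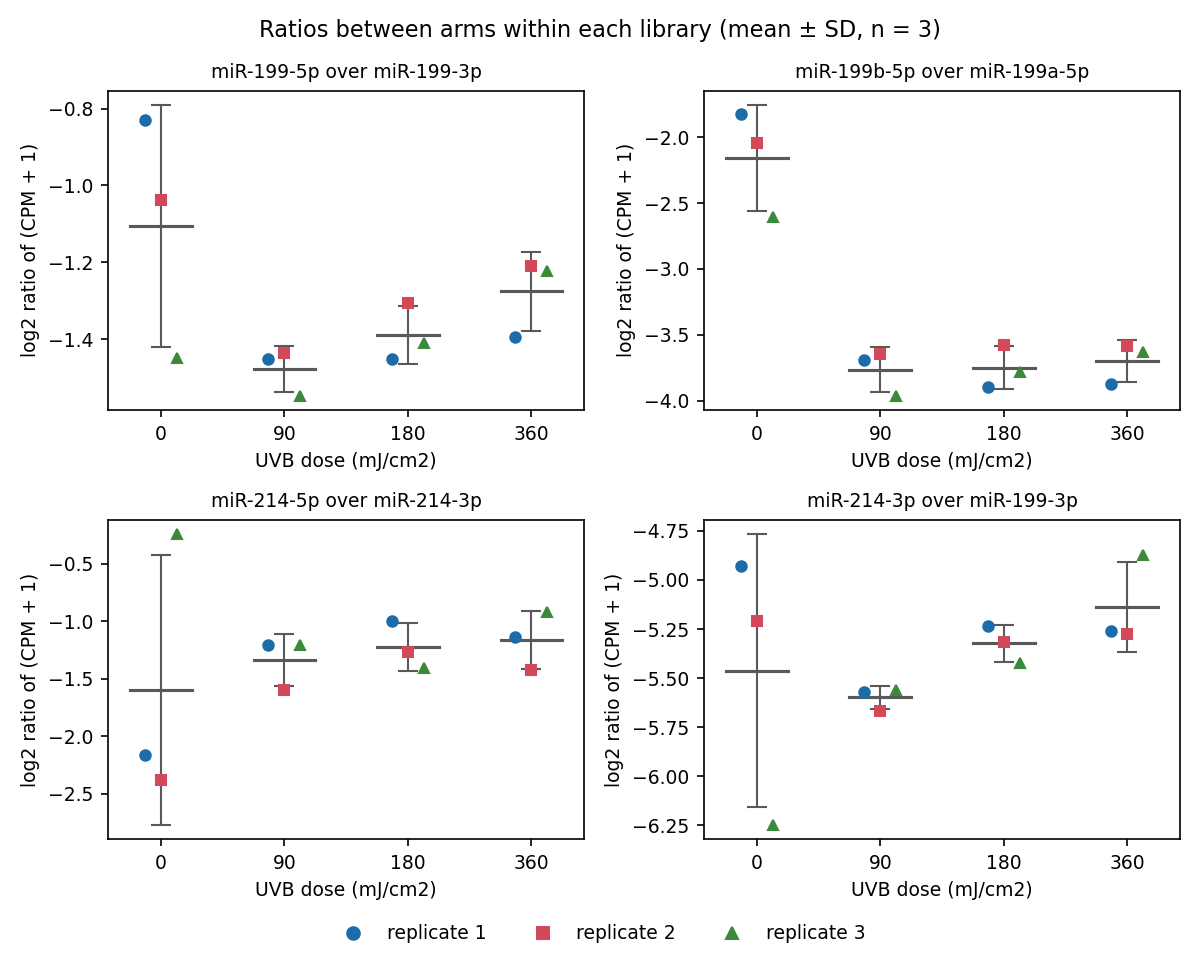
The log2 ratio of (CPM + 1) between arms of the same library (y axes, scaled to each panel) against UVB dose in mJ/cm2 (x axis), 1 point per library with the mean ± SD of 3 libraries. miR-199b-5p over miR-199a-5p lies between -3.96 and -3.57 in irradiated libraries and between -2.61 and -1.83 in controls; in the other 3 panels irradiated and control libraries overlap.

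mmu-miR-214-3p, the more abundant arm of miR-214, was higher at the upper doses. It had 586, 535 and 239 CPM in controls, 588, 571 and 867 CPM at 90 mJ/cm2, 818, 715 and 907 CPM at 180 mJ/cm2, and 957, 849 and 775 CPM at 360 mJ/cm2. The groups of 180 and 360 mJ/cm2 lay above all controls, while UVB_90 replicates 1 and 2 were at the level of controls 1 and 2. It rose by 0.94 ± 0.29 log2 units at 180 mJ/cm2 (limma adjusted p = 0.0243) and by 1.02 ± 0.29 at 360 mJ/cm2 (adjusted p = 0.0109), and was 0.65 ± 0.29 above control at 90 mJ/cm2 (adjusted p = 0.114). Over all irradiated libraries it rose by 0.87 ± 0.24 (adjusted p = 0.00788). The call at 360 mJ/cm2 held in all 25 alternatives. Control replicate 3, the lowest library, carried part of the size: without it the differences were 0.61 at 360 mJ/cm2, 0.53 at 180 mJ/cm2 (adjusted p = 0.0685), 0.24 at 90 mJ/cm2 and 0.46 over all irradiated libraries (adjusted p = 0.0547). The call at 180 mJ/cm2 also ended without UVB_180 replicate 1 (0.0583) or 3 (0.0819), and in a fit of only the groups compared (0.0554).

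mmu-miR-214-5p, the scarcer arm of miR-214, was also higher after irradiation. It had 130, 102 and 201 CPM in controls, 254, 188 and 374 CPM at 90 mJ/cm2, 408, 296 and 340 CPM at 180 mJ/cm2, and 435, 315 and 408 CPM at 360 mJ/cm2. Here control replicate 3 was the highest control, the reverse of its place for miR-214-3p, and among irradiated libraries only UVB_90 replicate 2 lay below it. miR-214-5p rose by 0.91 ± 0.28 log2 units at 90 mJ/cm2 (limma adjusted p = 0.0289), by 1.31 ± 0.28 at 180 mJ/cm2 (adjusted p = 0.00458) and by 1.46 ± 0.28 at 360 mJ/cm2 (adjusted p = 0.000819), where it was 2.74-fold higher and 40th of 590 in order of fold change. With all libraries its rise was the largest of the 5 arms at each dose. The fall of miR-199b-5p at 90 mJ/cm2 (-0.996) was larger in size. Without control replicate 2, miR-214-3p differed by more at 90 mJ/cm2 (0.82, against 0.69 for miR-214-5p) and at 180 mJ/cm2 (1.11, against 1.09), as it did without control replicate 1 at 90 mJ/cm2 (0.89, against 0.86). Over all irradiated libraries it rose by 1.23 ± 0.23 (adjusted p = 0.000787). The calls at 180 and 360 mJ/cm2 and over all irradiated libraries held in all 25 alternatives. That at 90 mJ/cm2 held in 17 and ended with TMM factors (0.0585), median-ratio size factors (0.0507) and a fit of only the groups compared (0.0863). It also ended without control replicate 1 (0.0926) or 2 (0.121), without UVB_90 replicate 1 (0.0552), and without UVB_90 replicate 3, where the difference was 0.65 (0.141).

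Across the members, 2 rose, 1 fell and 2 did not pass at 90 mJ/cm2, where 25.6% of all 590 arms passed (13.2% higher and 12.4% lower). At 180 mJ/cm2, 4 rose and 1 fell, where 30.7% of all arms passed (16.6% higher and 14.1% lower). At 360 mJ/cm2, 4 rose and 1 fell, where 39.8% passed (20.2% higher and 19.7% lower). Over all irradiated libraries the count was again 4 up and 1 down, where 41.4% passed (20.7% in each direction). The members' median difference was 0.65, 0.80 and 0.72 log2 units at 90, 180 and 360 mJ/cm2, against 0.04, 0.06 and 0.02 over all arms tested. The groups did not overlap for 3 members at 90 mJ/cm2, 4 at 180 mJ/cm2 and 4 at 360 mJ/cm2, where the shares of all arms were 37.6%, 42.5% and 49.3%. For 2 members, miR-199-3p and miR-199a-5p, all 9 irradiated libraries lay apart from all 3 controls, as for 23.6% of all arms. These comparisons share the same 3 controls, so their values are not independent of each other. None of the members changed direction against control under any scaling, filter, pseudocount, tool or left-out library tried.

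**Figure D3:**
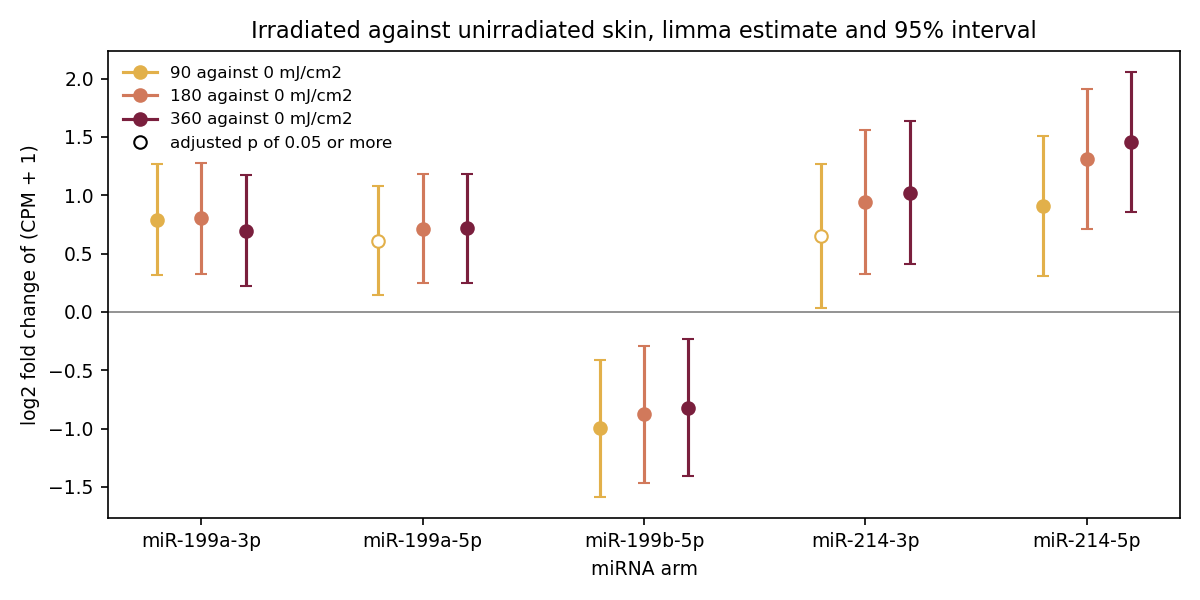
Log2 fold change of (CPM + 1) against unirradiated skin (y axis) for each arm (x axis) at 90, 180 and 360 mJ/cm2, as limma's estimate and 95% interval; open points have an adjusted p of 0.05 or more. miR-199b-5p lies below 0 at each dose, from -0.996 to -0.822, and the other 4 arms lie above it, from 0.61 to 1.46.

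No difference between irradiated doses passed for these arms. In limma none of the 5 passed between 180 and 90, 360 and 90 or 360 and 180 mJ/cm2, none had an unadjusted p under 0.05, and none passed in edgeR or DESeq2, where limma called 0%, 11.2% and 4.07% of all arms in the 3 comparisons. The most that any arm differed was 0.55 ± 0.28 log2 units for miR-214-5p between 360 and 90 mJ/cm2 (95% interval -0.05 to 1.15, adjusted p = 0.224). For miR-199-3p the difference between 360 and 90 mJ/cm2 was -0.09 (95% interval -0.57 to 0.38), so a fall or a rise within that interval remains possible. Fitted as a straight line in dose over the 12 libraries, miR-214-5p rose by 0.37 ± 0.09 log2 units per 100 mJ/cm2 (limma adjusted p = 0.00593) and miR-214-3p by 0.26 ± 0.09 (adjusted p = 0.0321), where 30% of all arms passed and 15.6% did so upwards. The slope of miR-214-5p passed in all 25 alternatives. That of miR-214-3p did not pass without a filter on low values (adjusted p = 0.0559), nor without control replicate 2 (0.0504), control replicate 3, where it was 0.16 (0.0616), or UVB_360 replicate 1 (0.0745). The slopes of miR-199-3p (0.15 ± 0.08, adjusted p = 0.165), miR-199a-5p (0.17 ± 0.07, adjusted p = 0.0722) and miR-199b-5p (-0.17 ± 0.09, adjusted p = 0.202) did not pass. When the totals left out miR-21a-5p and miR-1a-3p, those of miR-199-3p (0.22, adjusted p = 0.0399) and miR-199a-5p (0.24, adjusted p = 0.0147) did, as they did without UVB_360 replicate 3 (0.23 in both, adjusted p = 0.0488 and 0.0259). That of miR-199a-5p also passed without UVB_90 replicate 3 (0.0354), alone or together with UVB_180 replicate 1 (0.0463).

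The arms of a hairpin did not keep a fixed ratio in controls. miR-214-5p over miR-214-3p had log2 ratios of -2.17, -2.38 and -0.25 in controls, and of -1.60 to -0.92 in the 9 irradiated libraries, so the controls lay on both sides. The difference between irradiated and control means was 0.35 (exact permutation p = 0.368, adjusted p = 0.491). It was 1.03 without control replicate 3 (adjusted p = 0.0242) and -0.037 without control replicate 2, so the value depended on which control was left out. miR-199-5p, as the sum of miR-199a-5p and miR-199b-5p, over miR-199-3p averaged -1.38 ± 0.11 in irradiated skin (SD, n = 9) and -1.11 ± 0.31 in controls (n = 3). That difference of -0.28 had an exact permutation p of 0.0364 (adjusted p = 0.0727), and was -0.45 without control replicate 3 (adjusted p = 0.0242). miR-214-3p over miR-199-3p differed by 0.11 (exact permutation p = 0.686, adjusted p = 0.686), and by -0.28 without control replicate 3 (adjusted p = 0.164).

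The promoter of Dnm3os is shown because its transcript holds Mir199a-2 and Mir214. Arms that these hairpins can give were higher in the same skin. The miR-199a arms also come from Mir199a-1, and miR-199-3p from Mir199b as well, so their reads do not name this locus. Whether transcription of Dnm3os changed was not tested. RefSeq's window on GRCm38.p6, chr1:162217373-162217672 on the plus strand, ends 50 bases after the start of Dnm3os, and the Mir199a-2 hairpin begins 191 bases after that start. Capitals mark CANNTG, the E-box letters that Twist1 and many related factors bind; the motif reads as CANNTG on both strands.
Dnm3os: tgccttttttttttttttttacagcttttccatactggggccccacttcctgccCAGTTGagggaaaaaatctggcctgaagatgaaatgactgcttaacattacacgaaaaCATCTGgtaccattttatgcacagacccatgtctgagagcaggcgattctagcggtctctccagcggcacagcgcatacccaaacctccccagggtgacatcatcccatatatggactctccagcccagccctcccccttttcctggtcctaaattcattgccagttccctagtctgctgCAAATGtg
It held 3 matches, which do not overlap. At least 1 match was found in 72.3% of all 32851 promoter windows of this length and 3 or more in 17.6%, so the letters are common, and a match is not a binding site.

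Of 5 other mesenchyme-enriched arms, miR-10b-5p, which lies in the HoxD gene cluster, fell at 360 mJ/cm2 by 0.78 ± 0.22 log2 units (limma adjusted p = 0.0103). The other 4 (miR-100-5p, miR-99a-5p, miR-125b-5p and miR-152-3p) lay between -0.27 and 0.40 and did not pass there. At 90 and 180 mJ/cm2 all 5 lay between -0.48 and 0.38 and did not pass in limma. Over all irradiated libraries miR-10b-5p fell (-0.57 ± 0.18, adjusted p = 0.0178) and the other 4 did not pass. Every irradiated library lay below every control for miR-10b-5p. In the smooth muscle cluster miR-143/miR-145, the arms of 1 hairpin went opposite ways. miR-145a-5p fell by 1.26 ± 0.22 at 360 mJ/cm2 (adjusted p = 0.000355) and by 0.65 ± 0.22 at 180 mJ/cm2 (adjusted p = 0.0367). miR-145a-3p rose by 0.66 ± 0.22 at 90 mJ/cm2 (adjusted p = 0.0402) and by 0.57 ± 0.18 over all irradiated libraries (adjusted p = 0.0197), all of which lay above all controls. Its differences at 180 and 360 mJ/cm2, 0.51 ± 0.22 (adjusted p = 0.0917) and 0.53 ± 0.22 (adjusted p = 0.0696), did not pass. miR-143-3p fell at 180 mJ/cm2 (-0.56 ± 0.19, adjusted p = 0.0417) and by 0.54 ± 0.19 at 360 mJ/cm2 (adjusted p = 0.0364). At 360 mJ/cm2 miR-143-5p differed by 0.37 ± 0.20 (adjusted p = 0.163). In a list of 7 fibrosis-linked arms, 2 rose and 3 fell at 90 mJ/cm2 and again at 180 mJ/cm2, and 3 rose and 1 fell at 360 mJ/cm2. At 360 mJ/cm2 those that rose were miR-21a-5p (3.03 ± 0.25, adjusted p = 1.2e-06), miR-155-5p and miR-21a-3p. miR-29c-3p, which targets collagen mRNAs, fell by 2.11 ± 0.42, 1.92 ± 0.42 and 1.31 ± 0.42 at 90, 180 and 360 mJ/cm2 (adjusted p = 0.00329, 0.00468 and 0.0215). Its relatives miR-29a-3p and miR-29b-3p fell at 90 and 180 mJ/cm2, miR-29b-3p by 1.28 ± 0.33 at 90 mJ/cm2 (adjusted p = 0.0122), and did not pass at 360 mJ/cm2 (adjusted p = 0.0852 for miR-29a-3p and 0.0995 for miR-29b-3p).

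Markers of other skin cells moved over the same libraries. The summed level of 7 keratinocyte and epithelial arms was 81219 to 94933 CPM in controls, 28121 to 88669 CPM at 90 mJ/cm2, 41085 to 95200 CPM at 180 mJ/cm2 and 11646 to 36482 CPM at 360 mJ/cm2, and all 7 fell at 360 mJ/cm2 in limma. At 90 mJ/cm2, 3 of the 7 fell: miR-200a-3p (-2.19 ± 0.45 log2 units, adjusted p = 0.00437), miR-141-3p (-1.86 ± 0.39, adjusted p = 0.00548) and miR-429-3p (-1.74 ± 0.45, adjusted p = 0.0136). The same 3 fell at 180 mJ/cm2, with differences of -2.12, -1.79 and -1.83. The other 4 passed at neither of these doses. The summed level of 4 myeloid and leukocyte arms (the 3p and 5p arms of miR-223 and miR-142a) was 457 to 622, 842 to 2281, 795 to 1597 and 3353 to 4594 CPM at 0, 90, 180 and 360 mJ/cm2, and all 4 rose at 360 mJ/cm2. Endothelial miR-126a, 2 arms, summed to 8303 to 8774, 11276 to 16516, 16862 to 20385 and 21891 to 25249 CPM at the same doses, and 1 of the arms rose at 360 mJ/cm2. The 4 skeletal muscle arms summed to 193259 to 228888, 157798 to 173522, 82046 to 187147 and 153621 to 202440 CPM at 0, 90, 180 and 360 mJ/cm2. Of these, miR-133a-3p and miR-133b-3p fell at 90 and 180 mJ/cm2 and over all irradiated libraries, where their differences were -1.03 ± 0.28 and -1.30 ± 0.32 log2 units (limma adjusted p = 0.00798 and 0.00442), and miR-133b-3p fell at 360 mJ/cm2. The other 2 muscle arms, miR-1a-3p and miR-206-3p, passed at no dose. Over all irradiated libraries they differed by -0.40 ± 0.21 (adjusted p = 0.148) and 0.20 ± 0.28 (adjusted p = 0.602). Control replicate 3 stood apart there too, with a mean muscle level of -0.67 log2 units against the control mean, where controls 1 and 2 had 0.29 and 0.38. The sums of 3 red blood cell arms overlapped between all doses, from 286 to 1088 CPM. No arm of these lists was at 0 in any library. Their part in the levels of the members was not tested. Within 90 mJ/cm2, replicates 1, 2 and 3 had epithelial sums of 81697, 88669 and 28121 CPM. Their miR-199-3p levels were 27969, 29052 and 40902 CPM. Within 180 mJ/cm2 the epithelial sums were 41085, 90429 and 95200 CPM, and the miR-199-3p levels 30802, 28517 and 38908 CPM. Within 360 mJ/cm2 the epithelial sums were 13204, 36482 and 11646 CPM, and the miR-199-3p levels 36692, 32951 and 22708 CPM. The members' summed level was 2.80 ± 0.25% of reads in controls, 4.52 ± 0.95% at 90 mJ/cm2, 4.64 ± 0.74% at 180 mJ/cm2 and 4.47 ± 0.97% at 360 mJ/cm2 (SD, n = 3 each). The myeloid sums at 360 mJ/cm2 lay above every library of the other doses, and the members' summed levels overlapped between the 3 irradiated doses.

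**Figure D4:**
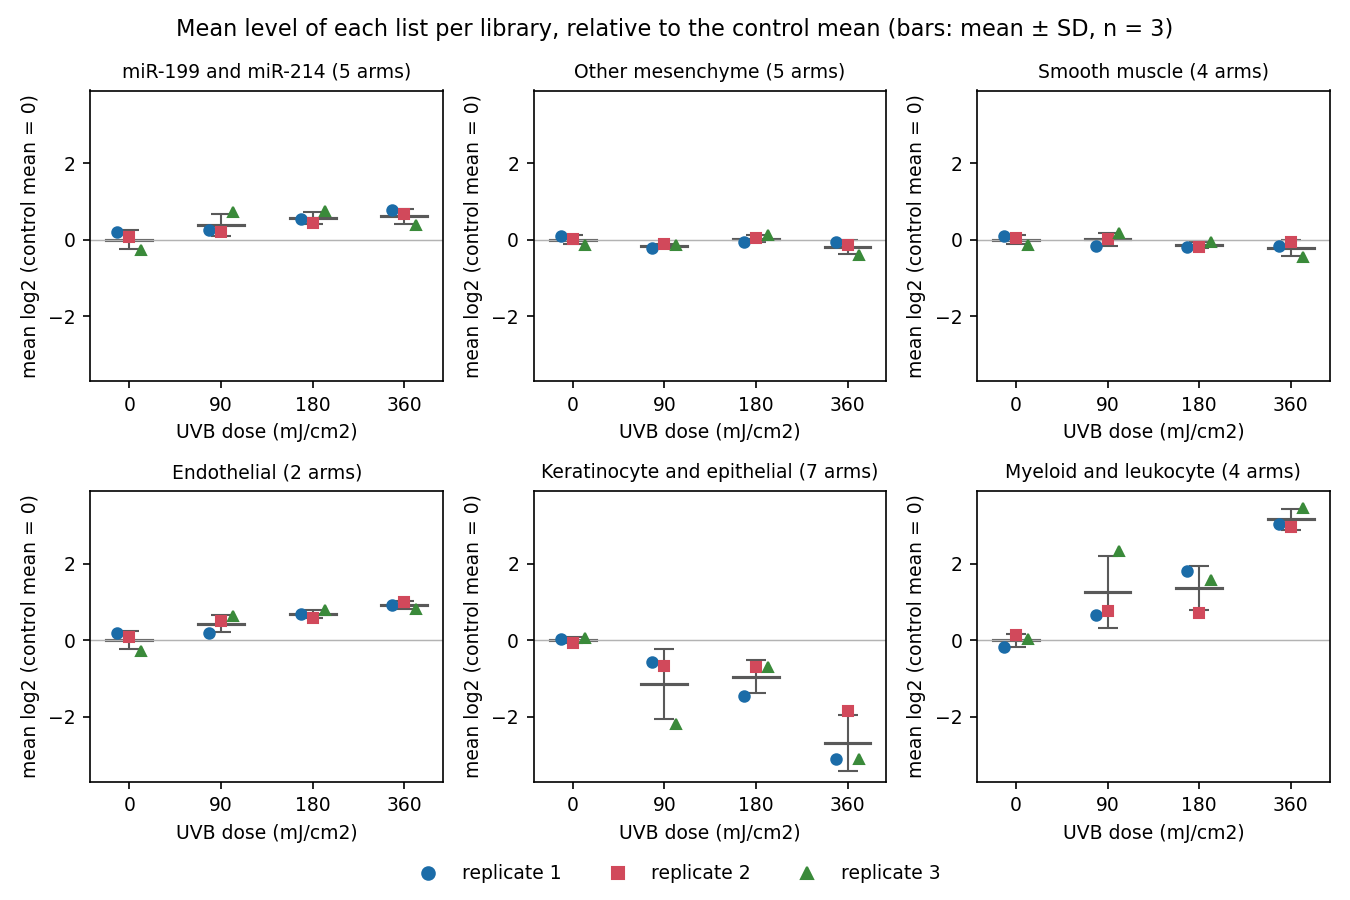
Mean log2(CPM + 1) of each list of arms per library (y axis), with the control mean set to 0, against UVB dose in mJ/cm2 (x axis); points are libraries and grey bars the mean ± SD of 3. The miR-199 and miR-214 arms lie between 0.20 and 0.77 after irradiation, while the epithelial arms reach -3.11 and the myeloid and leukocyte arms 3.47 at 360 mJ/cm2.

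The arms whose levels followed the members most closely were ranked by Pearson r of log2(CPM + 1) over the 12 libraries, among 332 arms with a mean of at least 10 CPM. The libraries share the difference between irradiated and control skin, so r is a description and has no p. Closest to miR-199-3p were miR-145a-3p (r = 0.95), miR-455-3p (r = 0.93), miR-212-5p (r = 0.92), miR-409-5p (r = 0.91) and miR-335-3p (r = 0.89). miR-145a-3p averaged 249 ± 16.6, 402 ± 98.6, 356 ± 34.0 and 365 ± 76.8 CPM at 0, 90, 180 and 360 mJ/cm2 (SD, n = 3 each). Closest to miR-214-3p were miR-132-3p (r = 0.93), the 3p arm (r = 0.90) and 5p arm (r = 0.85) of miR-34b, miR-34c-5p (r = 0.88) and miR-335-5p (r = 0.84). miR-132-3p averaged 26.2 ± 11.1, 60.3 ± 17.2, 65.1 ± 3.87 and 84.6 ± 2.20 CPM at the same doses.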

How the data were processed

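The labels' protocols name Trizol extraction, the NEBNext small RNA kit and an Illumina NextSeq sequencer. The build was mm9, per the submitters' processing notes; the aligner, counter, trimming and miRBase release are not given. The authors deposited CPM, summing to 1000000 in each library. All values (100%) were whole multiples of 1 read within 0.01 reads, so reads were recovered. miR-199a-3p and miR-199b-3p hold identical values. Whether shared reads were counted in full for both or divided is not given, so their level, and any 5p over 3p ratio, carries that uncertainty. The second row makes up 1.79% to 4.09% of a library's total. Ligation favours some RNA ends, so levels of different arms compare only roughly.

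Filtering kept arms reaching 1 CPM in 3 or more libraries. The test was limma-trend (limma 3.58.1 in R 4.3.3) of log2 CPM with a pseudocount of 1, in 1 fit of 12 libraries with no replicate term. P-values are two-sided and Benjamini-Hochberg adjustment was over all tested arms of a comparison, with a threshold of 0.05. Fold changes on this scale understate changes of scarce arms. edgeR 4.0.16 and DESeq2 1.42.0 on recovered reads were alternatives. The fit was tested on simulated data. Permuting 3 libraries against 3 gives no p under 0.1, so ratios were tested as 9 irradiated libraries against 3 controls. Named arms are all members, arms sharing a seed, the 5 most alike miR-199-3p and the 5 most alike miR-214-3p, and up to 4 called arms at 360 mJ/cm2 from each of the mesenchyme, smooth muscle and fibrosis lists. Other arms named, from these or the marker lists, fall outside that rule and were chosen after their values were seen. Members and lists were chosen with earlier results of these data known.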

Additional observations from a re-analysis of the deposited data

How the results depend on the processing

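All 25 alternatives kept each member's direction against control. With 3, 5 and 5 member arms called at 90, 180 and 360 mJ/cm2, leaving out 1 library gave 0 to 4, 2 to 5 and 2 to 5; the calls that ended are named with each arm. Over all irradiated libraries the count was 4 or 5. The count for a straight line in dose, 2, was 1 to 4 on leaving out 1 library, 1 without a filter and 4 when the totals left out miR-21a-5p and miR-1a-3p. A fit of only the groups compared called 1 arm at 90 mJ/cm2 and 3 at 180 mJ/cm2. Without UVB_90 replicate 3 and UVB_180 replicate 1 together, 1 was called at 90 mJ/cm2. Totals counting identical arms once, chosen after seeing the data, called 3, 5 and 5. Over all tested arms, leaving out 1 library gave 50 to 173 calls at 90 mJ/cm2 (151 with all libraries), 90 to 196 at 180 mJ/cm2 (181) and 184 to 252 at 360 mJ/cm2 (235). Between 360 and 180 mJ/cm2 limma called 24 arms, edgeR 0, DESeq2 64 and a fit of only the groups compared 63; that fit called 83 at 90 mJ/cm2 against control. Between 360 and 90 mJ/cm2 limma called 66, and 43 without a filter. The share of calls that were higher at 90, 180 and 360 mJ/cm2 was 51.7%, 54.1% and 50.6%, against 42.7%, 41.2% and 41.1% with TMM factors and 60.0%, 63.1% and 64.9% with totals leaving out miR-21a-5p and miR-1a-3p, which moved the median of all arms to 0.10, 0.13 and 0.21.

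On leaving out 1 library, the ratio difference of irradiated from control skin was -1.80 to -1.41 for miR-199b-5p over miR-199a-5p and -0.45 to -0.14 for miR-199-5p over miR-199-3p. It was -0.037 to 1.03 for miR-214-5p over miR-214-3p, below 0 without control replicate 2, and -0.28 to 0.38 for miR-214-3p over miR-199-3p, below 0 without control replicate 3. Whether libraries with the same replicate number shared a batch is not known. Same-numbered libraries of different doses had correlations of deviations from -0.22 to 0.24. For replicate 2 of 90 and 360 mJ/cm2 the value was 0.24, against at most -0.07 with other numbers. For replicate 3 of 180 and 360 mJ/cm2 it was -0.22, against at most 0.26 with other numbers. A replicate block called 3, 5 and 5 members at the 3 doses, and left the miR-199b-5p over miR-199a-5p difference at -1.58, where 64 regroupings allow no p under 0.0156 (adjusted p = 0.0625).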
